A study of Mus musculus with 2 samples.

Results

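DNase I accessibility in the mouse urinary bladder was examined at 10 genes of the early stimulus response other than the AP-1 subunits: Egr1, Egr2, Egr3, Ier2, Ier3, Zfp36, Zfp36l1, Zfp36l2, Btg2 and Gadd45b. They were chosen by name from 21938 annotated protein-coding genes; the rule itself uses no measured value, but earlier results of these libraries were known when the genes were chosen. A locus was the annotated gene body with 20 kb on either side in the mm10 build. DNase-seq marks DNA that the nuclease DNase I cuts easily, which is typical of active promoters and enhancers. The series holds 2 libraries of bladder tissue from male B6CASTF1/J mice, the first-generation hybrid of C57BL/6J and CAST/EiJ, aged 14 days, with no treatment, mutation or second condition in the labels. Replicate 1 was taken to be a single male, although its label states no number of animals. The label of replicate 2 names 3 males, a pool in which single animals cannot be told apart. Both carry 1 donor record, and no label says whether the animals shared a litter. Whole tissue mixes urothelium, muscle and stroma, so a weaker signal from every cell and a signal from fewer cells cannot be told apart. RNA was not analysed here.

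Immediate-early genes are transcribed within minutes of a growth factor, stretch or stress signal, without new protein synthesis, because the factors that switch them on are already made and wait for the signal. Serum response factor binds CArG boxes together with ETS-domain partners, CREB binds the cyclic AMP response element (CRE), and NF-kappa-B answers inflammatory signals. Some of the induced proteins are transcription factors (the EGR family), and others end the response by destroying messages: ZFP36, ZFP36L1 and ZFP36L2 bind AU-rich elements in mRNA and bring in the CCR4-NOT deadenylase, and BTG2 binds the deadenylase subunits directly.

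The sequences below are shown because they hold the promoter motifs described later. They are the bases before RefSeq transcription start sites (TSSs) in the GRCm38.p6 assembly, the same build as mm10, of the C57BL/6J reference rather than the hybrid. Of the 10 genes, 6 matched an entry in the promoter table. Egr1, Egr3, Ier2 and Zfp36l2 are named only. Capitals mark bases inside a footprint, a short stretch protected from DNase I, called in both libraries. Bases in annotated exons of the gene were left out, except at Zfp36, where an exon of a transcript from an upstream start covers the whole sequence and only 30 of its bases, around the CArG box, are given.
Egr2 upstream start, chr10:67537316-67537565, plus strand: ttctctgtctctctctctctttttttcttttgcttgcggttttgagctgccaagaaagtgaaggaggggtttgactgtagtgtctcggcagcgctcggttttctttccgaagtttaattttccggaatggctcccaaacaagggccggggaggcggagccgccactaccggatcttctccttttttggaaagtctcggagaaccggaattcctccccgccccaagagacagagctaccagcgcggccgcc
Egr2 downstream start, chr10:67537619-67537868, plus strand: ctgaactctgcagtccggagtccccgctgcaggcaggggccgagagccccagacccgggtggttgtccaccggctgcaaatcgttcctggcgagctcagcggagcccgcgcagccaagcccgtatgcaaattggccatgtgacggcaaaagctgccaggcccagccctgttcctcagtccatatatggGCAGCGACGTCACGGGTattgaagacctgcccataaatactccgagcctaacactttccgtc
Zfp36 CArG box, chr7:28379267-28379296, minus strand: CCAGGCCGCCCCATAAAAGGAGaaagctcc
Zfp36l1, chr12:80113014-80113263, minus strand: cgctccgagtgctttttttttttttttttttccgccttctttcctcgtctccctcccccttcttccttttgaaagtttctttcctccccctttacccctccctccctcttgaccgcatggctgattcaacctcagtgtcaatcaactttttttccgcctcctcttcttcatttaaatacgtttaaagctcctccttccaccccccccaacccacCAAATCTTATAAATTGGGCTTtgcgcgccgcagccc
Gadd45b, chr10:80929841-80930072, plus strand: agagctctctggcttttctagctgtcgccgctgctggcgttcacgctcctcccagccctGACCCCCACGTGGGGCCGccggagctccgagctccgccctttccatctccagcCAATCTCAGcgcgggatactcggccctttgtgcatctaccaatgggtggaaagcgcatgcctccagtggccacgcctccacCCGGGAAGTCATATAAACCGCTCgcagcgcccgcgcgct
Btg2, chr1:134079156-134079405, minus strand: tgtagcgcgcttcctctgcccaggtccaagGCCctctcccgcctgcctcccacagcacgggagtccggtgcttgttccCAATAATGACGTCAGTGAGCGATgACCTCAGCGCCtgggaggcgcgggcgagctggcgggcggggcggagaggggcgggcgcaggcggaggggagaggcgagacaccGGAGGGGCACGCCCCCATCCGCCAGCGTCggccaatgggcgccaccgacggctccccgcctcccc
Ier3, chr17:35821463-35821683, plus strand: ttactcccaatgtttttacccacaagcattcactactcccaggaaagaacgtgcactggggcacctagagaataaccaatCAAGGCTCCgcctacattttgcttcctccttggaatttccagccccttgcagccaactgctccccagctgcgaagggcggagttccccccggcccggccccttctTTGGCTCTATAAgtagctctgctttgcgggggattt

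The motifs sit at different places in these sequences. In Egr2, the upstream sequence holds the CArG box CCTTTTTTGG, centred 370 bases before the nearest TSS annotated by GENCODE, and the downstream sequence holds CCATATATGG, centred 68 bases before it. The RefSeq start of the upstream sequence, chr10:67537566, is nearer to the first box than that GENCODE TSS. The upstream Egr2 sequence has no capitals, because no footprint there was shared. In Zfp36 the box CCATAAAAGG lies in capitals. In Zfp36l1 and Gadd45b the capitals nearest the start enclose TATAAA. In Btg2 the capitals enclose the complete CRE, TGACGTCA. The Ier3 sequence holds the NF-kappa-B site GGAGTTCCCC in lower case.

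Every one of the 10 genes had a promoter peak in both libraries. Such a peak was a region formed by overlapping peaks of both libraries whose span came within 1 kb of a TSS of the gene. Over all protein-coding genes 66.1% had one, so the count alone says little about these genes. Peak strength was read from the signal that the depositors gave each peak, a value in their own units that is comparable only within a library or after allowing for the scale of each library. The median over the 10 strongest promoter peaks was 9.28 in replicate 1 and 8.12 in replicate 2, against 5.01 and 4.19 over the 14500 open promoters. Of the 10, 9 lay above the median of all open promoters by mean signal (4.61), and 7 lay above the upper quartile (7.79).

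Gadd45b, a stress-induced regulator of MAP kinase signalling and growth arrest, had the strongest promoter. Its peak, chr10:80929841-80930080, read 14.9 in replicate 1 and 11.7 in replicate 2 (mean 13.3 ± 2.29 SD, n = 2) and ranked 455 and 610 among open promoters. It exceeded 96.7% of them. No other gene of the 10 reached its value in either library. SDs here and below are over the unscaled signals of the 2 libraries, so they include the difference in scale.

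Of the mRNA decay genes, 3 came next. The Zfp36l2 peak, chr17:84187861-84188140, read 11.4 and 10.2 in replicates 1 and 2 (10.8 ± 0.877 SD, n = 2). Btg2, whose peak is chr1:134079041-134079360, read 10.8 and 10.4 (10.6 ± 0.223 SD, n = 2). Zfp36, which encodes tristetraprolin, read 11.1 and 8.74 at chr7:28379181-28379400 (9.93 ± 1.68 SD, n = 2). Btg2 was the lowest of these 3 in replicate 1 and the highest in replicate 2, so its place is not resolved. Zfp36l2 exceeded Zfp36 in both libraries, although their ranges overlapped. Zfp36l1 was lower than all 3 in both libraries, with its peak at chr12:80112901-80113140. It read 8.04 in deposited units in each library, but the scales of the libraries differ, so these are not equal signals.

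The EGR genes spread over most of the range. Egr1, the family member best known as a serum-induced factor, read 10.0 and 8.19 (9.10 ± 1.28 SD, n = 2) at chr18:34859841-34860060. Egr2, required for myelination by Schwann cells, read 5.64 and 4.03 at chr10:67537381-67537580, close to the median open promoter. Egr3, required for muscle spindle formation, read 1.83 and 1.32 at chr14:70076761-70077000, above only 18.6% of open promoters. Egr3 was the lowest of the 10 in both libraries, and its values did not overlap those of any other gene. Treating 1 signal step as 1 count, the 95% exact Poisson intervals for Egr3 ran from 1.65 to 2.03 in replicate 1 and from 1.13 to 1.54 in replicate 2. These intervals cover counting error only.

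Of the IER genes, which encode small nuclear or membrane-associated proteins of the early response, Ier2 read 8.55 and 7.39 at chr8:84662761-84662980. Ier3, linked to cell survival under stress, read 5.58 and 4.62 at chr17:35821521-35821760. The 2 genes held the same order in both libraries and did not overlap. Over the 45 pairs of genes, 41 had the same order in both libraries and 38 had unscaled ranges that did not overlap. Neighbours that did not keep their order were Zfp36l2 and Btg2, Btg2 and Zfp36, Zfp36l1 and Ier2, and Ier3 and Egr2. Zfp36 exceeded Egr1 in both libraries, although their unscaled ranges overlapped. Division by the median of each library over shared regions changed some overlaps. Scaled in this way, Zfp36 (8.68 and 8.96) and Egr1 (7.81 and 8.40) did not overlap. Egr1 and Zfp36l1 (6.28 and 8.25) did, although their unscaled ranges were apart.

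**Figure D1:**
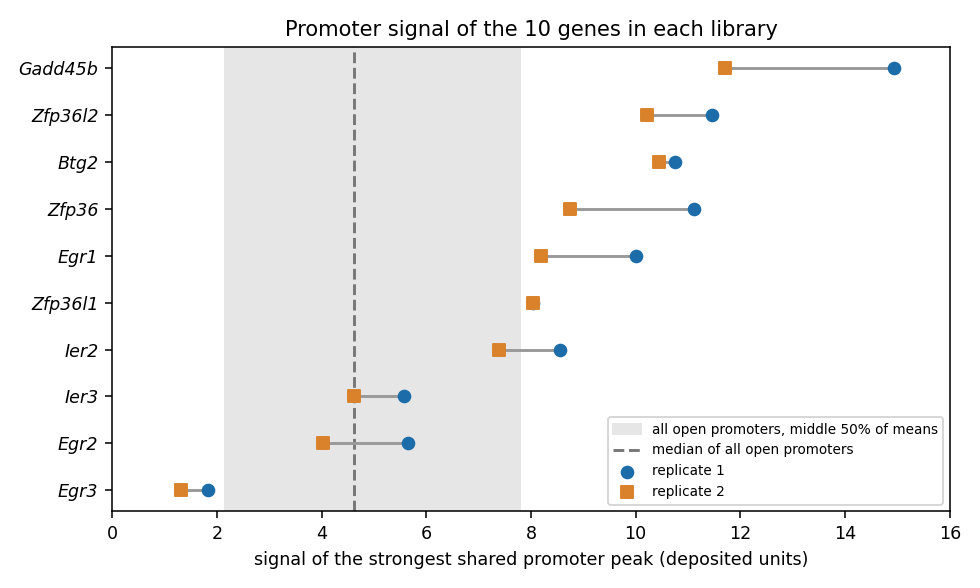
Signal of the strongest shared promoter peak of each gene (horizontal axis, deposited units) in replicate 1 (circles) and replicate 2 (squares), with a line joining the libraries. The grey band spans the quartiles of all 14500 open promoters and the dashed line their median, 4.61: Gadd45b lies farthest right, Ier3 and Egr2 near the median and Egr3 left of the band.

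Replicate 1 gave the higher signal at 9 of the 10 promoters, as it did at 82.0% of all open promoters. After division by the median of each library over shared regions (1.28 and 0.975), 2 of the 10 were higher in replicate 1. The median log2 difference, replicate 2 minus replicate 1, was then 0.11 for the 10 genes and 0.14 for all open promoters, whose SD was 0.30.

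The accessible stretch around the promoter, read as the unbroken run of bases at a false discovery rate (FDR) of 0.05 or lower, did not follow the order of peak signals. Zfp36 had a run of 2456 bp in replicate 1 and 1906 bp in replicate 2, Ier2 2367 and 2103 bp, and Egr1 2131 and 2098 bp. Gadd45b, with the strongest peak, had 1695 and 1090 bp, and Btg2 had 675 and 574 bp. Egr3 had the shortest runs, 305 and 271 bp. The medians over the 10 genes were 1132 and 925.5 bp, against 862 and 792 bp over all open promoters.

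Several of the genes had further shared regions near their own starts, 28 in all, or 18 apart from the strongest ones. Egr2, which has 6 annotated start sites, had 5, some of them nearest the same start. Its second region, centred 108 bases before the downstream start, read 5.26 and 4.12, below the strongest (5.64) in replicate 1 and above it (4.03) in replicate 2, so which of them is stronger is not resolved. Egr1 had 4: the strongest was centred 128 bases after its upstream start, and the next, centred 86 bases before its downstream start, read 7.50 and 6.68. Zfp36l2 had a second region 654 bases upstream with 7.99 and 6.32. Btg2, Ier3 and Egr3 had 1 each.

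Footprints, given by the depositors as positions without a graded score, were found near a start of all 10 genes in both libraries. Over all protein-coding genes 61.9% had a shared footprint overlapping the 1 kb windows. Shared footprints were counted as footprints of replicate 1 that touched the region and overlapped one of replicate 2, so that wide footprints of 1 library can meet several of the other. By that count, the median in the strongest promoter region was 3 over the 10 genes and 3 over all open promoters. Egr1 and Zfp36l2 had 6 shared footprints each in that region and Zfp36 had 4. Gadd45b, Btg2, Zfp36l1 and Ier3 had 3 each, and Ier2 and Egr3 had 1. Egr2 had none there that overlapped between libraries, with 4 in replicate 1 and 2 in replicate 2 at different bases. Its nearest shared footprint lay 44 bp from a start, within the second region. For Egr3 the nearest shared footprint was 332 bp away, and for each of the other 9 genes it was within 44 bp.

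**Figure D2:**
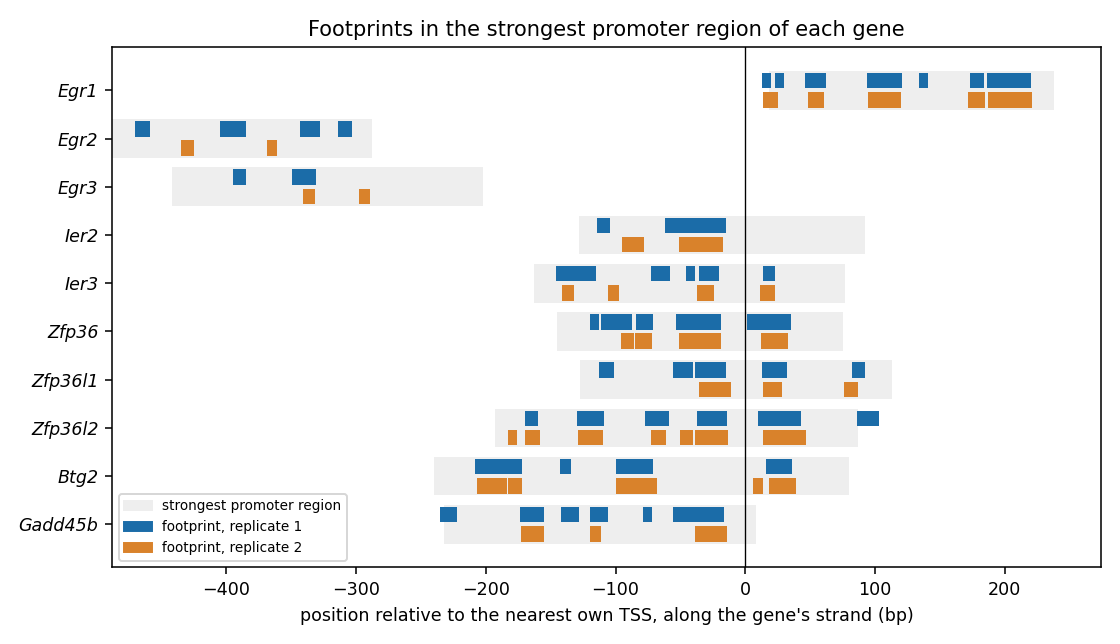
Footprints of replicate 1 (upper row of each gene) and replicate 2 (lower row) across the strongest promoter region (grey), by position relative to the nearest annotated TSS of the gene in bp. In Ier2, Ier3, Zfp36, Zfp36l1, Zfp36l2 and Gadd45b a footprint of both libraries lies just before the start. The regions of Egr2 and Egr3 lie wholly upstream of the nearest start annotated by GENCODE. For Egr2, the RefSeq start at chr10:67537566 lies inside the region.

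Exact letter matches on both strands were counted in the 10 strongest promoter regions and in the 13175 distinct strongest regions of all open promoters. Motif distances are from the nearest start of the gene annotated by GENCODE, which can differ from the RefSeq start of the printed sequence. The median width was 240 bp in both sets, and the median GC content was 61.8% and 65.5%. CArG boxes were in 3 of 10 regions (Egr2, Egr3 and Zfp36) against 0.964% of all. With every shared region near an own start included, a scan chosen after these values were seen, 5 of 28 regions from 4 genes held one, against 1.04% of 27855 regions. Egr1 joined through its downstream region, with boxes centred 100 and 78 bases before the start. The Zfp36 box, centred 26 bases before its start, lay wholly in a shared footprint, and those of Egr2 overlapped a footprint of replicate 2 only. No footprint of either library covered the boxes of Egr1 or Egr3. These members were chosen with the early response in mind, so the shares are a description of the sequences.

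The TATA box, TATAAA, was in 3 regions, those of Zfp36l1, Zfp36l2 and Gadd45b, against 3.20% of all. Each was centred 26 bases before the start and lay wholly in a shared footprint. The CArG box of Zfp36 occupies the same distance from its GENCODE start, chr7:28379255. The RefSeq start of Zfp36, chr7:28379228, lies farther from that box. For Gadd45b, the RefSeq start, chr10:80930091, lies farther from the TATA box than the GENCODE start, chr10:80930073. The CRE, TGACGTCA, was in 2 regions against 3.64%, each time wholly in a shared footprint. It was centred 42 bases before the start in Ier2 and 198 bases before the GENCODE start, chr1:134079120, in Btg2. The RefSeq start of Btg2, chr1:134079155, is nearer to its CRE. The EGR site, GCGNGGGCG, was in the regions of Zfp36, Btg2 and Gadd45b against 12.8% of all, and in Zfp36 it overlapped a shared footprint. The NF-kappa-B site was in the Ier3 region only, against 4.93%. It was centred 58 bases before the GENCODE start, chr17:35821684, and was partly covered by a footprint of replicate 1. The RefSeq start of Ier3, chr17:35821713, lies farther from it. With every shared own-promoter region counted, 5 genes had one (Egr1, Egr2, Ier3, Zfp36 and Gadd45b), in 5 of 28 regions against 5.89%.

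Of the remaining motifs, the GC box, GGGGCGG, was in 4 of 10 against 46.0%, and the TEAD site, GGAATG, was in 1 of 10 against 9.38%. The CCAAT box was in 5 of 10 against 34.3%. Neither the AP-1 site, TGANTCA, nor the ETS site, CCGGAAGT, was in any of the 10, against 4.33% and 7.54%. In the wider scan of 28 regions, AP-1 sites were in 2 regions (of Gadd45b and Zfp36) against 6.61%, and EGR sites were in 6 regions of 5 genes against 10.2%. TEAD sites were in 3 regions of 2 genes against 11.6%, and ETS sites remained absent. A match of letters does not show binding, and the absence of a match says only that these letters are not in the window.

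The loci were dense in accessible regions. They held 108 shared regions, of which 28 lay within 1 kb of a start of the named gene, 26 within 1 kb of a start of another annotated gene and 54 farther from any start. The median was 10 per locus, against 4 over all protein-coding genes (quartiles 1 and 7) and 5 over genes with an open promoter. Per 100 kb, the medians were 23.4 and 4.96 over all genes. The windows were short, with a median of 44.0 kb against 57.4 kb over all genes, so a window of equal flanks holds relatively more of the start site than it does for long genes.

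The decay genes and Gadd45b had the highest counts. Zfp36 had 16 shared regions, Zfp36l1 and Zfp36l2 had 14 each, Gadd45b had 13 and Btg2 had 11. Ier3 had 9, Egr2, Egr3 and Ier2 had 8 each, and Egr1 had 7. The makeup differed: of the 8 at Egr2 none was distal, whereas 10 of the 14 at Zfp36l2 were. At Ier3, 6 of 9 lay at starts of Flot1, Mdc1 or Tubb5.

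**Figure D3:**
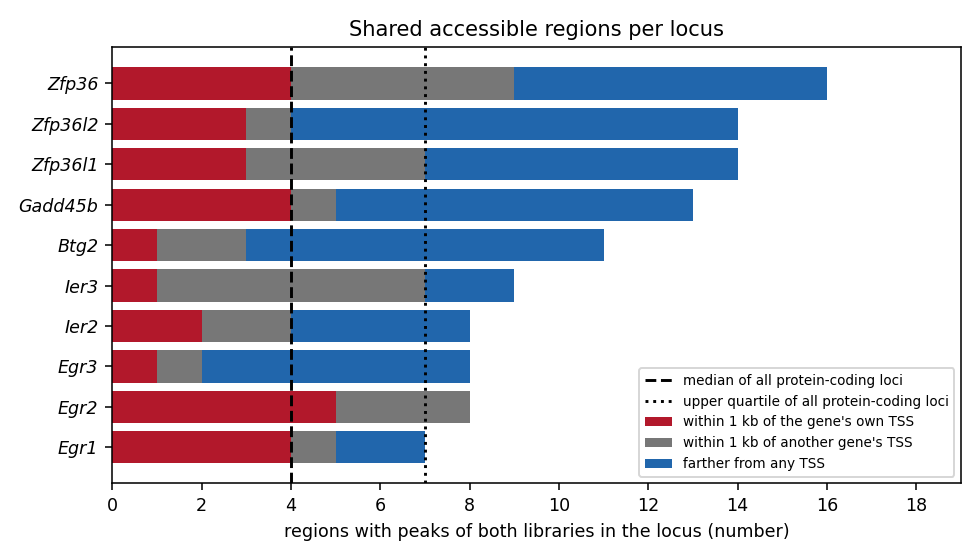
Shared regions in each locus (bar length, number of regions), coloured by distance to annotated start sites. The dashed and dotted lines mark the median (4) and upper quartile (7) over all protein-coding loci: every bar passes the first, and that of Egr1 ends at the second.

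The strongest shared region of the locus was the gene's own promoter in 6 of 10 cases. At Ier2 it was a region 1228 bases upstream, near a start of the non-coding gene Gm26664, with 9.74 and 9.63. At Ier3 it was a region near a start of Mdc1, with 13.6 and 11.6, and at Zfp36 one near a start of Plekhg2, with 10.4 and 12.4. At Egr3 it was a distal region at chr14:70074881-70075140, centred 2192 bases before the annotated 5′ end, which read 4.61 and 4.62. In both libraries this was higher than the Egr3 promoter peak. Egr3 and Ier3 were the only ones of the 10 with a distal region stronger on average than their own promoter.

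**Figure D4:**
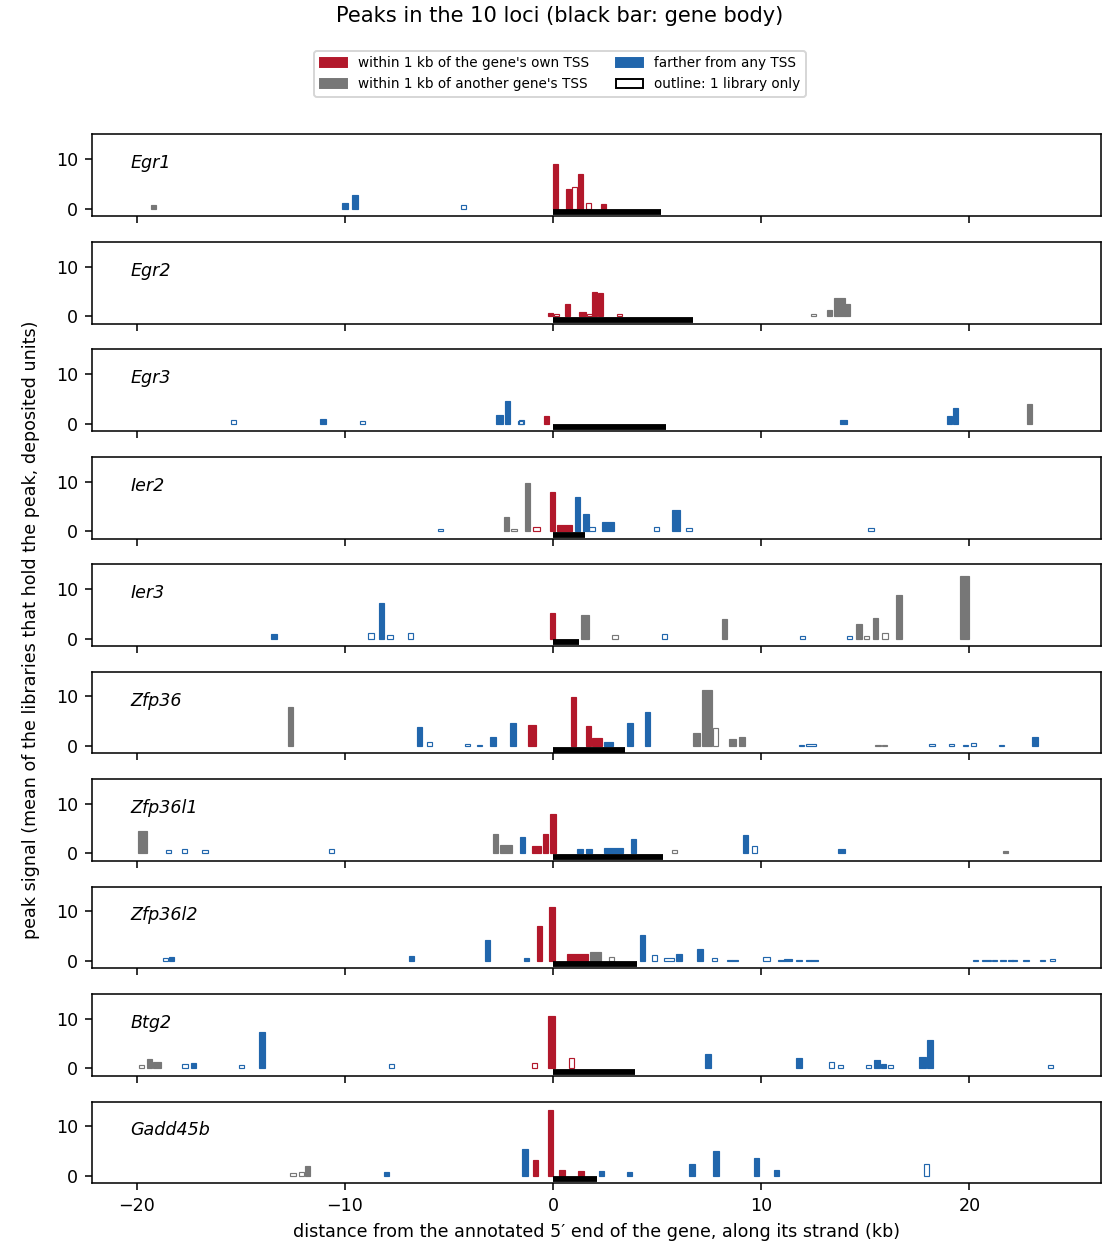
Peaks of the 10 loci by distance in kb from the annotated 5′ end of each gene, along its strand. Bar height is peak signal (mean of the libraries that hold it, deposited units), filled bars are regions of both libraries and outlined bars regions of 1 library: red bars cluster at the starts, and Egr2 has no filled blue bar.

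The 2 strongest distal regions are shown because they exceeded 99.49% (Btg2) and 99.45% (Ier3) of the distal shared regions in the genome. Both are printed on the plus strand, from the same reference, with shared footprints in capitals.
Btg2 distal, chr1:134092961-134093240, plus strand: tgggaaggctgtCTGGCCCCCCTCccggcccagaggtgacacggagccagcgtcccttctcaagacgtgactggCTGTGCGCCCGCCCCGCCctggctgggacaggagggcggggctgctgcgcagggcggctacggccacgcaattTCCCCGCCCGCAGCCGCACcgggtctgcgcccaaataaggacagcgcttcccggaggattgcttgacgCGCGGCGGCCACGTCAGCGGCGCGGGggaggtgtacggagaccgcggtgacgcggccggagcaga
Ier3 distal, chr17:35813301-35813560, plus strand: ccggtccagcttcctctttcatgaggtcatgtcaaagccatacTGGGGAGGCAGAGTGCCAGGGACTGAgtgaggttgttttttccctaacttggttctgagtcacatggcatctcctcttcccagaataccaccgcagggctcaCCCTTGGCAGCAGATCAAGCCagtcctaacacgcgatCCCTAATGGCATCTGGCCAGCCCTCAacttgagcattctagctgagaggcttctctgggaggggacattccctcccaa

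The Btg2 region, centred 13980 bases upstream of the gene, read 8.29 and 6.57 (7.43 ± 1.21 SD, n = 2). It held 4 shared footprints and a GC box wholly within one of them, and its CArG box, CCTTATTTGG on the strand of the gene (the minus strand, so its reverse complement appears above), was outside footprints. The Ier3 region, centred 8254 bases upstream, read 8.53 and 6.00 (7.26 ± 1.79 SD, n = 2). Its AP-1 site TGAGTCA and its NF-kappa-B site GGGACATTCC each overlapped a footprint of replicate 1 only. Which gene such a region acts on was not measured.

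The other 8 of the 10 strongest distal regions came from 5 of the loci. Ier2 had one 1152 bases after its start, in its own exon, with 7.89 and 6.02. Zfp36 had regions 4522, 3692 and -1928 bases from its annotated 5′ end with means of 6.82, 4.72 and 4.65, the last in an intron of Gm44710. Btg2 had a second, 18110 bases downstream, with 6.43 and 4.84. Gadd45b had one 1352 bases upstream with 6.19 and 4.80, and one 7818 bases downstream with 7.04 and 3.08. The last pair was the most unequal of the 10. Zfp36l2 had one 4306 bases downstream with 5.86 and 4.45.

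The median over the 54 distal regions was 1.89, against 0.942 over the 45309 distal shared regions of the genome. Of the 54, 17 lay above the 95th percentile of all, 3.45. Weak regions were also present: 3 shared regions between 11280 and 12566 bases downstream of the 5′ end of Zfp36l2 had means from 0.232 to 0.311. AP-1 sites were in 16.7% of the 54 against 16.3% of all distal regions, and TEAD sites in 18.5% against 15.9%. GC boxes were in 14.8% (8 regions) against 5.07% and ETS sites in 5.56% (only 3 regions) against 0.486%. CArG boxes were in 3.70% (2 regions) against 1.05%. CCAAT boxes were in 22.2% against 22.4%, and TATA boxes in 0 of 54 against 5.68%. The CRE was in 1 region (1.85% against 0.444%), as was the EGR site (1.85% against 0.759%). NF-kappa-B sites were in 13.0% against 3.01%. The distal regions of these loci were wider (median 250 bp against 200 bp), so the shares were also read in equal windows of 200 bp. There NF-kappa-B sites were in 3.70% against 2.63%, AP-1 sites in 14.8% against 15.3% and TEAD sites in 13.0% against 14.6%, the last 2 with the direction turned. GC boxes were in 16.7% against 4.48% and ETS sites in 3.70% (only 2 regions) against 0.415%. CCAAT boxes were in 14.8% against 21.1% and TATA boxes in 1.85% against 5.59%.

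Footprints in the loci numbered 526 in replicate 1 and 347 in replicate 2, and 208 were shared, which is 39.5% of those of replicate 1 against 35.9% over the genome. The median was 20 shared footprints per locus, against 7 over all genes and 10 over genes with an open promoter. Zfp36 had the most, with 39, and Egr3 the fewest, with 10. A shared footprint was present in 78.6% of the shared regions at own starts, 80.8% of those at starts of other genes and 64.8% of distal ones.

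Bases at an FDR of 0.05 or lower in both libraries made up 9.89% of all bases in the 10 loci. The median was 9.30% per locus, against 1.93% over all genes and 2.71% over genes with an open promoter. Zfp36 had 19.6% and Zfp36l1 13.4%. Egr2 and Egr3 were lowest, at 5.95% and 5.65%. The libraries were far apart at Zfp36l2, with 30.1% in replicate 1 and 12.2% in replicate 2, and at Zfp36, with 34.5% and 19.7%.

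Zfp36l2 and Zfp36 also held nearly all of the weakest regions seen in 1 library. Replicate 1 alone had 73 regions in the 10 loci, with a median signal of 0.604, and replicate 2 alone had 6. Of the 73, 23 read below 0.4: 13 at Zfp36l2, 9 at Zfp36 and 1 at Egr2. Only 6 of the 73 touched bases at an FDR of 0.05 or lower in replicate 2. The highest, at 4.47, lay between shared regions of Egr1.

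Related genes gave the setting for these values. Of 9 family relatives, 7 had a shared promoter peak, with a median signal of 7.98. Btg1 (14.8), Ier5l (8.60) and Gadd45a (8.13) were the highest. Btg4 had a promoter peak in replicate 1 only, and Zfp36l3 had none. Egr4, the remaining EGR gene, read 0.890 and 0.664, below all 3 of the EGR genes above.

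Of 11 partners and upstream factors, including the EGR co-repressors Nab1 and Nab2 and serum response factor, all had a shared promoter peak. Their median was 5.55. Mrtfa (14.0), a co-activator of serum response factor, and Creb1 (11.6) were the highest. Of 20 genes of the mRNA decay machinery, all had one, with a median of 9.21. Cnot9 (17.4), Pan2 (14.0) and Cnot8 (13.5), which encode parts of deadenylase complexes, were the highest.

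The locus counts of these lists differed from the signals. The decay machinery had a median of 4 shared regions per locus, equal to that of all protein-coding genes, while the 3 ZFP36 genes and Btg2 had 11 to 16. All 7 AP-1 genes had a shared promoter peak, with a median signal of 8.28 and a median of 10 regions. Jund (13.9), Jun (13.1) and Fosl2 (9.72) were the highest. All 26 other immediate-early genes had one too, with medians of 7.53 and 8 regions, led by Sik1 (12.4), Klf6 (12.3) and Atf3 (12.2). No difference between lists was tested.

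**Figure D5:**
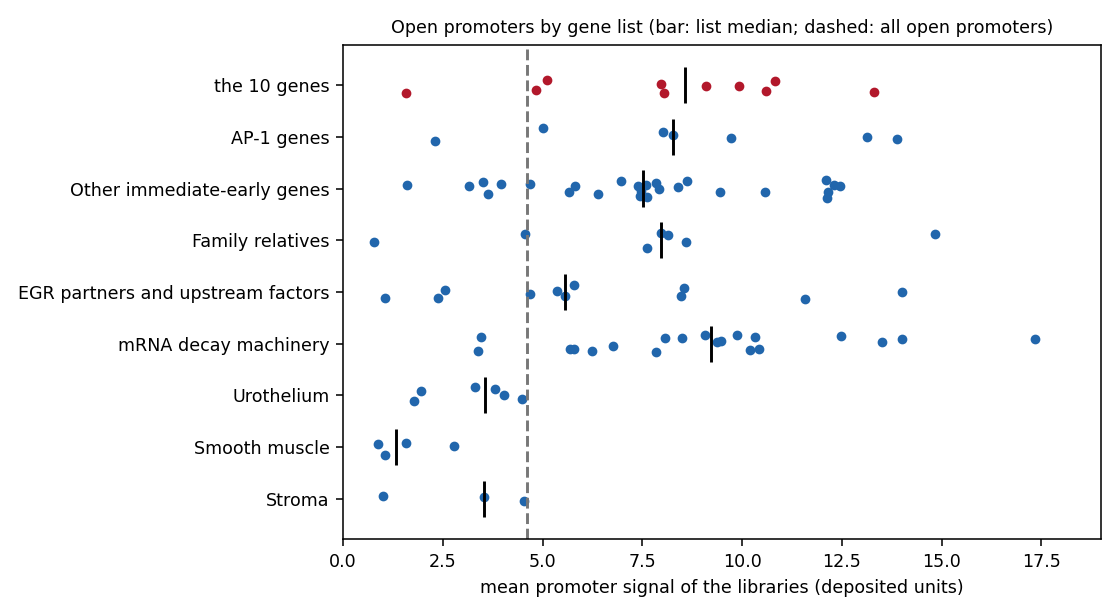
Mean promoter signal of each gene with a shared promoter peak (points, spread vertically for legibility) in the 10 genes and in the comparison lists, in deposited units. Bars are list medians and the dashed line is the median of all open promoters (4.61). The medians of the 10 genes (8.57), the AP-1 genes (8.28) and the decay machinery (9.21) lie to its right. So do those of the family relatives (7.98), other immediate-early genes (7.53) and partners and upstream factors (5.55). Those of the urothelial (3.55), smooth muscle (1.32) and stromal (3.54) markers lie to its left.

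The tissue label was checked on marker genes. All 6 urothelial, 4 smooth muscle and 3 stromal markers had a shared promoter peak, as did 66.1% of all protein-coding genes. Their median signals were 3.55, 1.32 and 3.54. Each of these markers lay below the median of all open promoters (4.61), the highest being Col1a1 at 4.52. None of 6 markers of other tissues (Alb, Apoa1, Ddx4, Hbb-bs, Myod1 and Neurod6) had a shared promoter peak. Replicate 1 had 139821 peaks and replicate 2 had 82225, and 73164 regions were shared. Read totals were not used here. The smallest step between signal values was 1.54 times larger in replicate 2.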

How the data were processed

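The series holds DNase-seq of bladder nuclei, 1 group of 2 libraries, with mm10 named in the labels. Per the labels' protocols, nuclei were isolated from tissue by a linked document that was not used here. Aligner, peak caller and footprint caller were not given in the sources used here.

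Each library has deposited files with a looser and a stricter peak list whose signal column is in the authors' own units, footprint positions with a constant value, and a track of false discovery rates, which the authors deposited as adjusted p-values per stretch. Each signal was a whole multiple of 1 step per library (100% of values within 0.02 steps), and counting intervals take 1 step as 1 count. Reads of amplified libraries are not independent molecules, so those intervals cover counting error only.

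Peaks of the looser lists that overlapped by at least 1 bp were joined, and a region was shared when both libraries contributed. Gene models were GENCODE M21 protein-coding genes (mm10). The strongest shared region by mean signal within 1 kb of a start was the promoter peak. Motifs were read from the RefSeq assembly with pysam 0.24.0. Python 3.11.15, numpy 2.4.6 and pandas 2.3.3 were used. The overlap code was tested on simulated peaks. With 1 group there is no contrast, so no test was run. The SD is over the unscaled signals of 2 libraries, includes their difference in scale and may be technical. Alternatives were the stricter list, other windows and flanks, larger overlaps, an FDR of 0.001, scaling and each library alone.

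The members and gene lists were chosen with earlier results of these data known. All 10 members are named, with the 3 strongest promoters of each comparison list, every listed gene without a shared promoter peak, and the 10 strongest distal regions. One gene that this rule names is not reported here.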

Additional observations from a re-analysis of the deposited data

How the results depend on the processing

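With 2 libraries and no second condition, the values describe these libraries. All 10 genes kept a shared promoter peak with the stricter peak list, with windows of 500 or 2500 bp, with 50% overlap and in each library alone. With footprints limited to 250 bp from a start, 9 genes had one, and Egr3 was the exception. The median promoter signal was 7.68 after division by the median of each library over shared regions. That is a ratio, so it cannot be compared with the 8.57 in deposited units. With flanks of 50 kb there were 163 shared regions, a median of 18 per locus (7 over all genes), and 5.82% of bases at the FDR limit in both libraries. With flanks of 10 kb that share was 14.7%. Counting distal regions only, the median was 6.5 per locus (1 over all genes). Using 1 library alone gave 114 to 181 regions, medians of 10.5 to 17 per locus (4 to 6 over all genes), 347 to 526 footprints and 10.4% to 16.1% of bases. The higher value of each range is replicate 1. In windows of 200 bp the CRE was in 1 promoter region and the CCAAT box in 3. No paired analysis was possible because there is only 1 group. The cause of these changes was not tested, except that larger windows and unshared lists hold more regions by construction.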
